A study of Mus musculus with 5 samples.

Results

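The H2 genes are the mouse major histocompatibility complex, a run of genes on chromosome 17 that encode the proteins displaying peptides to T cells. Members were the RefSeq genes of chromosome 17 between 33 and 38 Mb whose symbols start with H2-, which gave 46 of the 49603 genes used, and the CTCF peaks of the same 5 Mb, which were 132 of the 22756 in the list. By symbol, 33 members were class I genes, 12 were class II genes, and 1, H2-Ke6, belongs to neither class. Of the members, 35 were annotated as protein-coding and the others as pseudogenes, some of them transcribed. RefSeq lists 4 more H2- symbols, H2-Q8, H2-D4, H2-Q9 and H2-T18, at chromosome 17 positions below 3 Mb. The list has 0 peaks of chromosome 17 below 3 Mb, and these positions appear to be counted on another sequence than the chromosome, so the genes were not analysed here and nothing is said of where they lie.

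The study sequenced chromatin immunoprecipitated with CTCF antibody from NIH3T3 cells, an established mouse embryonic fibroblast line. All libraries came from cells that stably carried H2B-mCherry, the rtTA3G transactivator and CDX2 under the doxycycline-controlled TRE3G promoter. CTCF was precipitated in 2 libraries given doxycycline for 6 h (CTCF_Dox, at a dose labelled as 500 ng/µL) and in 2 without it (CTCF_noDox). The series also holds 1 input library without doxycycline. The deposited list merges the peaks of both conditions and gives positions without heights, so no peak can be tied to doxycycline, to a replicate or to a read depth, and CTCF_Dox could not be compared with CTCF_noDox. No spread between replicates is available. The intervals printed below cover counting error only and treat neighbouring peaks as independent. Peak positions carry no expression, so the cell identity was not checked.

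Class I proteins such as H2-K1 and H2-D1 sit on nearly all nucleated cells and show peptides from inside the cell to CD8+ T cells. Class II proteins such as H2-Aa and H2-Ab1 are made mainly by professional antigen-presenting cells, and fibroblasts typically make them after interferon gamma induces the coactivator CIITA. CTCF is a zinc finger protein that marks insulators and stops cohesin at the anchors of chromatin loops. In the human complex, CTCF binds an element called XL9 between class II genes and contributes to their regulation in antigen-presenting cells. H2 haplotypes differ between strains in sequence and in the number of Q and T genes. Coordinates are those of mm10, from C57BL/6J mice, while NIH3T3 cells come from NIH Swiss mice, and what that difference does to the peaks was not tested.

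Of the 46 members, 32 had an entry in the RefSeq promoter table. Sequences are shown for the class I genes that the results turn on, since these copies resemble each other closely. They are the 250 bases before the first listed RefSeq start on GRCm38.p6, 5′ to 3′ on the gene's strand. H2-K1 and H2-D1 are the classical class I genes, H2-Q6, H2-Q7 and H2-Q10 are Q genes with a CTCF peak upstream, and H2-Q4 is one without a peak nearby. Capitals mark GGGGATTCC (letters of the NF-κB site of class I promoters), GAANNGAAA (the interferon regulatory factor core) and CCAAT (the Y box) on either strand, and 0 bases of the promoters shown fall in more than 1 of these.
H2-K1: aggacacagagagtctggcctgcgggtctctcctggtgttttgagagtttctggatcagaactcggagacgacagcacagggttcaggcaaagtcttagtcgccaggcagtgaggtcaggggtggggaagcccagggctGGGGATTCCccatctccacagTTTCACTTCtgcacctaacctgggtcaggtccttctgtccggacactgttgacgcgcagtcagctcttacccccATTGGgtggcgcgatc
H2-D1: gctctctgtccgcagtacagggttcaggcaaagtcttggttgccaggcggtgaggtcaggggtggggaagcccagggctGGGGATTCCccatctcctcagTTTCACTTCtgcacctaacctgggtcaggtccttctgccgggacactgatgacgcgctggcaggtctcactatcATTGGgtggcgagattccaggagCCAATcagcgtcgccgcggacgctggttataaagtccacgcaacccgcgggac
H2-Q4: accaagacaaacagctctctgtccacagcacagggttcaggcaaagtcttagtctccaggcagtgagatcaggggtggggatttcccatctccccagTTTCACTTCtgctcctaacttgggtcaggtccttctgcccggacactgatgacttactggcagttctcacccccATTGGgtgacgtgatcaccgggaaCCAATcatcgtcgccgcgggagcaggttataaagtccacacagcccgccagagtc
H2-Q6: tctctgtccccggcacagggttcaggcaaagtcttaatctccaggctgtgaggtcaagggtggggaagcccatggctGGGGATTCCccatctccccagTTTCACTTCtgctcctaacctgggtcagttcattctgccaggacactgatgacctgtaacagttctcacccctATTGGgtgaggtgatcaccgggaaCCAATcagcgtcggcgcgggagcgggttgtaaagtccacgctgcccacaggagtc
H2-Q7: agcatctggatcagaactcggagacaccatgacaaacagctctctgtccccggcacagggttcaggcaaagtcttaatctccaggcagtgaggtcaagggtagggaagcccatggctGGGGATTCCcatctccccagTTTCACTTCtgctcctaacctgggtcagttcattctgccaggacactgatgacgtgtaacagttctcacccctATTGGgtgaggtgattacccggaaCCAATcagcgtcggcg
H2-Q10: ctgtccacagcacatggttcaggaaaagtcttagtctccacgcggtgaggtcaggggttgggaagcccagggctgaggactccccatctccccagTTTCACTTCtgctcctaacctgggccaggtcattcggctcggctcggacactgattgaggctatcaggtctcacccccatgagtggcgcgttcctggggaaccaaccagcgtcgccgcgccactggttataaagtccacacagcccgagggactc
H2-K1 lies at chr17:34000348-34000597 on the minus strand. On the plus strand lie H2-D1 at chr17:35262844-35263093, H2-Q4 at chr17:35379367-35379616, H2-Q6 at chr17:35424600-35424849, H2-Q7 at chr17:35438905-35439154 and H2-Q10 at chr17:35469839-35470088. H2-Q6 and H2-Q7 were 97.3% identical over the 150 central bases of the promoter window, H2-K1 and H2-D1 92.7%, and H2-Q4 and H2-Q6 89.3%, against a median of 55.3% over all 253 class I pairs.

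A pair of class II promoters is shown for contrast. H2-Aa encodes the alpha chain of the I-A molecule and H2-Eb1 the beta chain of I-E, and their promoters hold Y boxes without the other capitalised letters.
H2-Aa: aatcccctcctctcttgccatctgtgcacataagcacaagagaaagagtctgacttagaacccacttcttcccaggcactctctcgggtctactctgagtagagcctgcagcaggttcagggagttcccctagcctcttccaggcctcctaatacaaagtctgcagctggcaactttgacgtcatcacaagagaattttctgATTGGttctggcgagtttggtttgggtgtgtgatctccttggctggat
H2-Eb1: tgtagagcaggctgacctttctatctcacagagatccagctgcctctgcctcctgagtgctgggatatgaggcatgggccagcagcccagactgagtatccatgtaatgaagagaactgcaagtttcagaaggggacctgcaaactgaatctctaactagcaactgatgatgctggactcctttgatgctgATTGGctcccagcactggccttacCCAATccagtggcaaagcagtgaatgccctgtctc
H2-Aa lies at chr17:34287824-34288073 on the minus strand and H2-Eb1 at chr17:34305617-34305866 on the plus strand. Among the members with a promoter entry, the interferon factor core was found in 8 of 23 class I promoters and 0 of 8 class II promoters, against 6.34% of all promoters of this length. The NF-κB letters were in 4 of 23 class I and 0 of 8 class II promoters, against 0.218% of all. These letters were picked as those of class I promoters, and the 4 were H2-K1, H2-D1, H2-Q6 and H2-Q7. Each class I promoter shown above holds the interferon factor core. Promoters this alike are not independent, so the NF-κB and interferon factor counts are a description. The Y box letters were in 20 of 23 class I and 7 of 8 class II promoters, against 34.5% of all. With 8 promoters, a count of 0 allows a share of up to 37.5%, taking 3 counts of the total as the limit here and for every share of 0 below.

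The H2 stretch was rich in CTCF peaks and even richer in genes. Its 132 peaks came to 26.4 per Mb (exact Poisson 95% interval 22.1 to 31.3), against 9.83 per Mb (9.18 to 10.5) over the rest of chromosome 17, a ratio of 2.69 (2.22 to 3.23). Of 522 windows of 5 Mb across the genome, 19 held more peaks and 0 held more protein-coding genes. The stretch had 45.2 protein-coding genes per Mb, against 9.47 on the rest of the chromosome. Counted by gene, the order turned round. There were 0.584 peaks per protein-coding gene in the stretch, against 1.04 on the rest of chromosome 17. Peaks in the stretch had a median width of 268 bp, against 262 bp for the other peaks of the list, and 11 of them were 500 bp or wider (8.33%, against 4.03%).

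**Figure D1:**
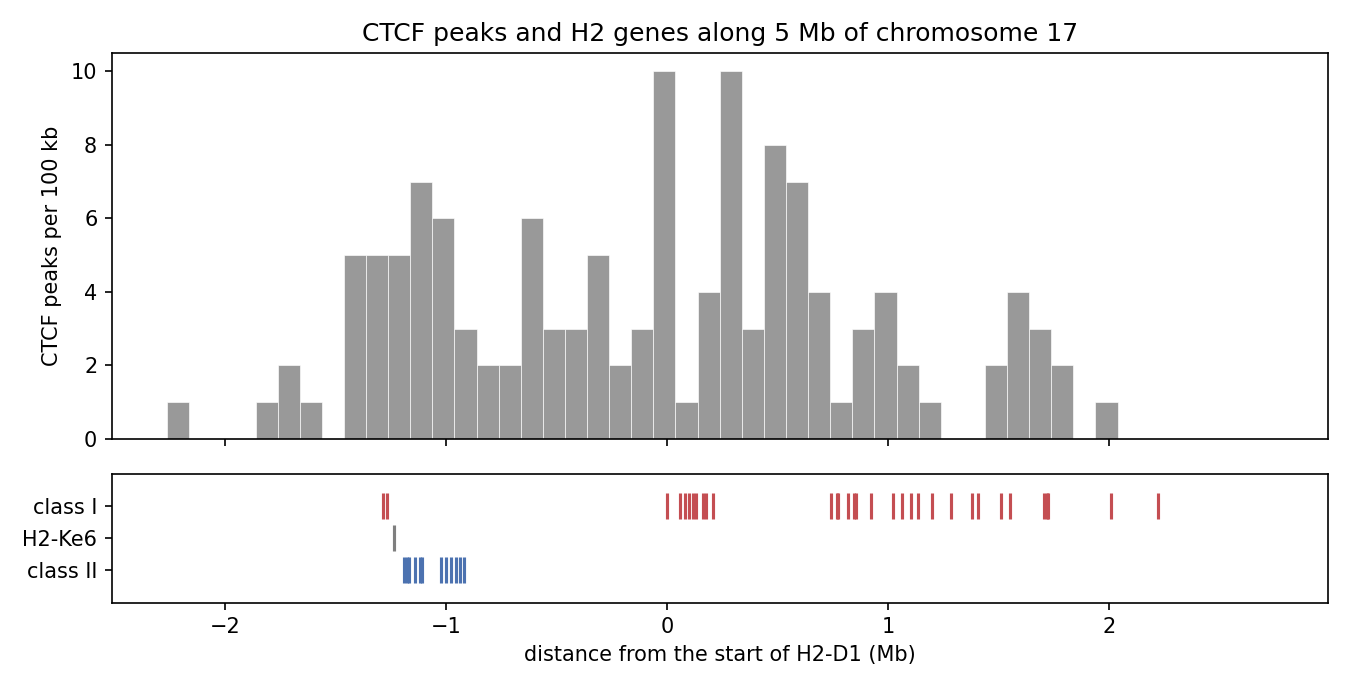
CTCF peaks per 100 kb (bars, upper panel) and the start of each H2 gene (ticks, lower panel) along the 5 Mb of chromosome 17, with positions in Mb from the start of H2-D1. Class I genes lie on both sides of the 12 class II genes, and no peak lies beside H2-M2, the last class I gene, whose nearest peak is 277 kb away.

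Within the stretch, peaks were denser in the class II part than in the distal class I part. The class I part from H2-D1 to H2-M2 spans 2.22 Mb and held 66 peaks, 29.7 per Mb (23 to 37.8). The class II part from H2-Pb to H2-Ea spans 271 kb and held 16 peaks, 59.0 per Mb (33.7 to 95.9). Of these 16, 9 lay in the 78.7 kb between H2-DMb1 and H2-Ob, which hold no class II gene. The 106 kb from H2-Ob to H2-Ea held 2, or 18.9 per Mb (2.29 to 68.3). These smaller pieces were chosen after the peaks had been seen. The ratio of distal class I to class II was 0.504 (0.288 to 0.932). The short K end before class II, with H2-K2, H2-K1 and H2-Ke6, held 5 peaks in 99.0 kb. The class III part, which lies between class II and H2-D1 and carries complement and cytokine genes in place of H2 genes, held 32 peaks at 34.8 per Mb (23.8 to 49.2). The ratio of class II to class III was 1.69 (0.868 to 3.18), an interval that includes 1.

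The distal class I part was uneven, with most of its H2 genes in the thinner pieces. The Q run, from H2-Q1 to H2-Q10, held 3 peaks in 154 kb, or 19.5 per Mb (4.02 to 56.9). The T run, from H2-T24 to H2-T3, held 3 in 187 kb, or 16.1 per Mb (3.31 to 47.0). The M run, from H2-M10.2 to H2-M2, held 15 in 1199 kb, or 12.5 per Mb (7.0 to 20.6), and its ratio to the rest of chromosome 17 was 1.27 (0.709 to 2.11). Between the Q and T runs lie 529 kb without H2 genes, and this piece held 33 peaks, 62.4 per Mb (42.9 to 87.6). Its ratio to the M run was 4.99 (2.64 to 9.88). It carries Pou5f1, which encodes the pluripotency factor OCT4, Ddr1, a collagen receptor kinase gene, Tubb5, a beta-tubulin gene, and Ppp1r18, whose body held 3 peaks. The 57.4 kb from H2-D1 to the Q run held 7 peaks, 122 per Mb (49.0 to 251).

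**Figure D2:**
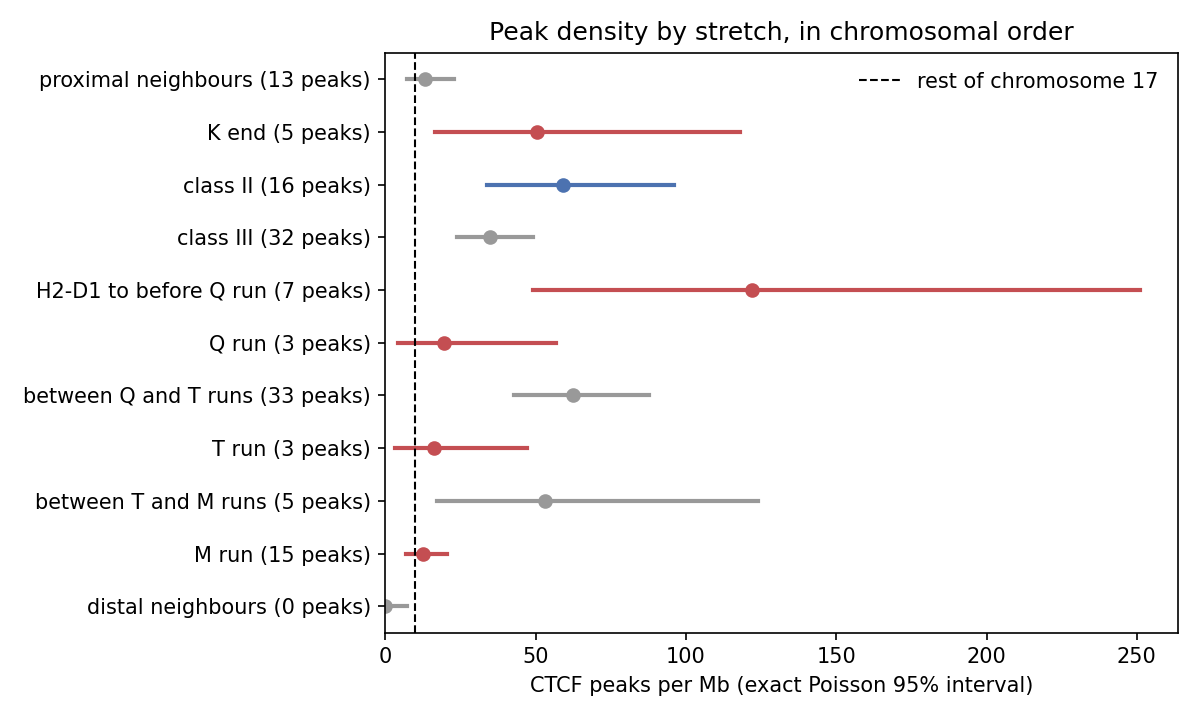
Peaks per Mb (points) with exact Poisson 95% intervals (lines) for 11 consecutive pieces of the stretch, top to bottom in chromosomal order, with pieces defined by class I genes in red, class II in blue and others in grey. The dashed line is the rest of chromosome 17 at 9.83 per Mb, and the Q, T and M runs lie at 19.5, 16.1 and 12.5.

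The share of H2 genes with a peak at an end was low, as among all genes, and its interval includes the shares of all comparison sets. The share with a peak inside or within 10 kb was above that of all RefSeq genes and close to that of protein-coding genes. A gene end was called where a peak midpoint lay within 1 kb of it. This held for 3 of the 46 members, 6.52% (exact binomial 95% interval 1.37 to 17.9%), against 8.30% of all RefSeq genes and 12.0% of protein-coding genes. It also held for 17 of the 190 protein-coding genes of the same stretch that are no members (8.95%). The 3 were H2-D1 and H2-M5 of class I and the pseudogene H2-Pb of class II. A peak inside the gene or within 10 kb of it was present at 26 of 46 members, 56.5% (41.1 to 71.1%), against 36.2% of all RefSeq genes and 50.8% of protein-coding genes. These 26 members lay near 34 distinct peaks, and neighbouring members shared some of them. Of those 190 neighbours, 94 had such a peak (49.5%). The gene body itself held a peak in 4 members, H2-Pb, H2-DMa, H2-Eb1 and H2-M5, or 8.70% (2.42 to 20.8%), against 17.2% of all RefSeq genes and 29.5% of protein-coding genes. This interval includes the first of these shares and lies below the second. Members had a median length of 4.2 kb, against 5.99 kb for all RefSeq genes and 17.2 kb for protein-coding genes, and the part of length in these shares was not tested.

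Class I genes lay farther from peaks than class II genes, and the M and Q genes lay farthest. A peak inside the gene or within 10 kb of it was found at 15 of 33 class I genes, 45.5% (28.1 to 63.6%), and at 10 of 12 class II genes, 83.3% (51.6 to 97.9%), and these intervals overlap. The shares over all RefSeq genes and protein-coding genes were 36.2% and 50.8%, and the class I interval includes both. Class I genes had a median length of 4.13 kb and class II genes 6.6 kb, and the part of length in these shares was not tested. The median distance to the nearest peak was 16.3 kb for class I genes and 5.88 kb for class II genes, against 9.41 kb for all protein-coding genes. Without the 15 M genes, the other 18 class I genes had a median of 7.33 kb, and 55.6% of them had a peak within 10 kb. By region the medians were 4.38 kb for the 2 K genes, 0.199 kb for H2-D1, 21.8 kb for the 8 Q genes, 8.33 kb for the 7 T genes and 25.8 kb for the 15 M genes.

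**Figure D3:**
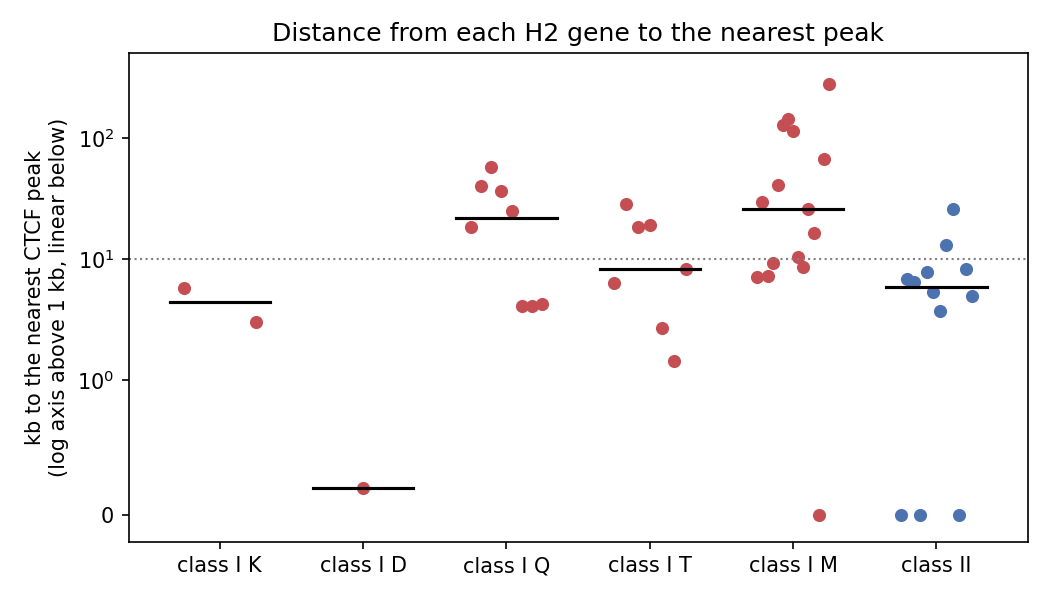
Distance in kb from each H2 gene to the nearest CTCF peak midpoint (points, 0 inside the gene; log axis above 1 kb), in chromosomal order within each column, with class I regions in red, class II in blue and medians as black lines. The dotted line marks 10 kb, and the M column reaches from 0 to 277 kb while class II stays at or below 25.8 kb.

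Peaks over promoters were too few to set the H2 genes apart. In the window from 250 bases before to 50 after the first listed start, 0 of 32 members with an entry overlapped a peak, which allows a share of up to 9.38%, against 3.76% of all promoters and 5 of the 217 in the stretch (2.30%). Peaks at other starts of the same gene were not counted. A core of the CTCF motif, searched on either strand, was in 1 of the 32 windows (H2-M10.4), against 8.56% of all windows and 39.5% of the windows that a peak overlapped. A match is a description of letters and not a site.

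Several class I genes had a peak upstream at like distances. H2-Q6 had a peak of 546 bp at 35420456 to 35421001, 4.12 kb upstream of its start. H2-Q7 had one of 335 bp at 35434869 to 35435203, also 4.12 kb upstream. H2-Q10, a class I gene whose product is secreted, mainly by liver, had one of 264 bp at 35465742 to 35466005, 4.22 kb upstream. The 3 offsets spread over 97 bp. H2-D1 had a peak 4.8 kb upstream and H2-K1 one 3.28 kb upstream, at 34003530 to 34003724.

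Counted over the members with a start, 5 of 23 class I genes and 1 of 8 class II genes (H2-Ob, 3.74 kb upstream) had a peak 3 to 5 kb upstream, against 3.70% of all promoter-table genes. The same distance downstream held a peak at 1 of 23 class I genes, H2-D1, and 0 of 8 class II genes, against 3.16% of all. Both shares are genome-wide, at 8.55 peaks per Mb, against 33.9 per Mb from the first to the last H2 gene. The part of local density was not tested. Among the class I genes counted, H2-Q6, H2-Q7 and H2-Q10 resemble each other, so they are not independent. The window 3 to 5 kb upstream was chosen after the offsets had been seen, so the counts are a description. Just outside it, H2-T-ps had a peak 2.76 kb upstream. H2-Q4, whose promoter resembles that of H2-Q6, had its nearest peak 36.1 kb away. How the authors placed reads of 37 bases from copies this alike is not known, and its part in these positions was not tested.

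**Figure D4:**
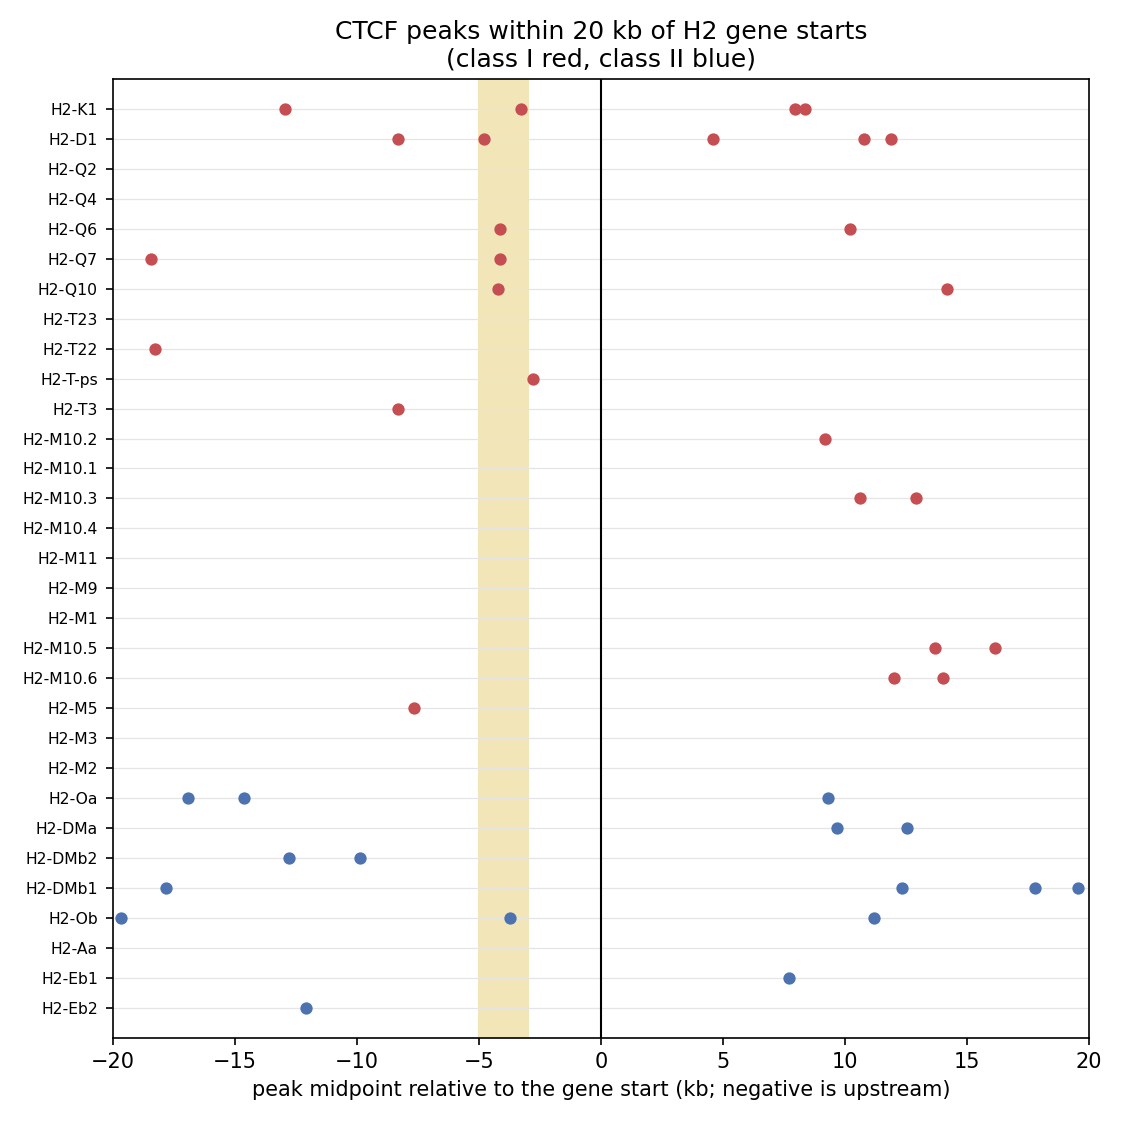
CTCF peak midpoints within 20 kb of the start of each H2 gene with a known strand (1 row per gene, class I in red above class II in blue, negative values upstream, in kb). The shaded band marks 3 to 5 kb upstream, where H2-K1, H2-D1, H2-Q6, H2-Q7, H2-Q10 and H2-Ob each have a peak.

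Peaks divided the class II genes into pairs and single genes. H2-Pa and H2-Oa shared 1 peak-free interval of 23.6 kb, H2-DMb2 and H2-DMb1 shared 1 of 29.8 kb, H2-Ab1 and H2-Aa shared 1 of 63.2 kb, and H2-Eb2 and H2-Ea shared 1 of 35.8 kb. H2-Ob stood alone in an interval of 14.5 kb. H2-Oa and H2-Ob encode the chains of H2-O, which restrains peptide loading, and H2-DMa, H2-DMb1 and H2-DMb2 those of H2-M, which loads peptides. H2-DMa was cut by 2 peaks, at 34132368 to 34132602 and 34135152 to 34135603, both inside the gene. H2-Ab1 and H2-Aa, the beta and alpha chain genes of I-A, were the only class II members without a peak within 10 kb, at 13.1 and 25.8 kb.

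The peaks of the class II part gathered away from the classical genes. From H2-Ab1 to H2-Ea, 81.4 kb, there was 1 peak, at 34313432 to 34313742 inside H2-Eb1 and 7.72 kb downstream of its start. The 78.7 kb between H2-DMb1 and H2-Ob held 9, or 114 per Mb (52.3 to 217), against 12.3 per Mb (0.311 to 68.4) from H2-Ab1 to H2-Ea. These pieces were chosen after the peaks had been seen, and their intervals overlap. The block between H2-DMb1 and H2-Ob carries Psmb9 and Psmb8, subunits of the immunoproteasome, and Tap1 and Tap2, which form the peptide transporter that feeds class I molecules. Tap2 had a peak at an end, at 34204259 to 34204645, and 4 peaks inside the gene or within 10 kb of it, while Psmb9 and Tap1 had 2 each and Psmb8 had 3. Psmb9, Tap1 and Psmb8 themselves lay in a peak-free interval of 26.8 kb, so their peaks were all outside the genes. With Tapbp, the tapasin gene at the proximal side, all 5 antigen processing genes listed had a peak within 10 kb, against 50.8% of protein-coding genes, and 1 of 5 had one at an end, against 12.0%. The 4 genes of the block are neighbours and share peaks.

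**Figure D5:**
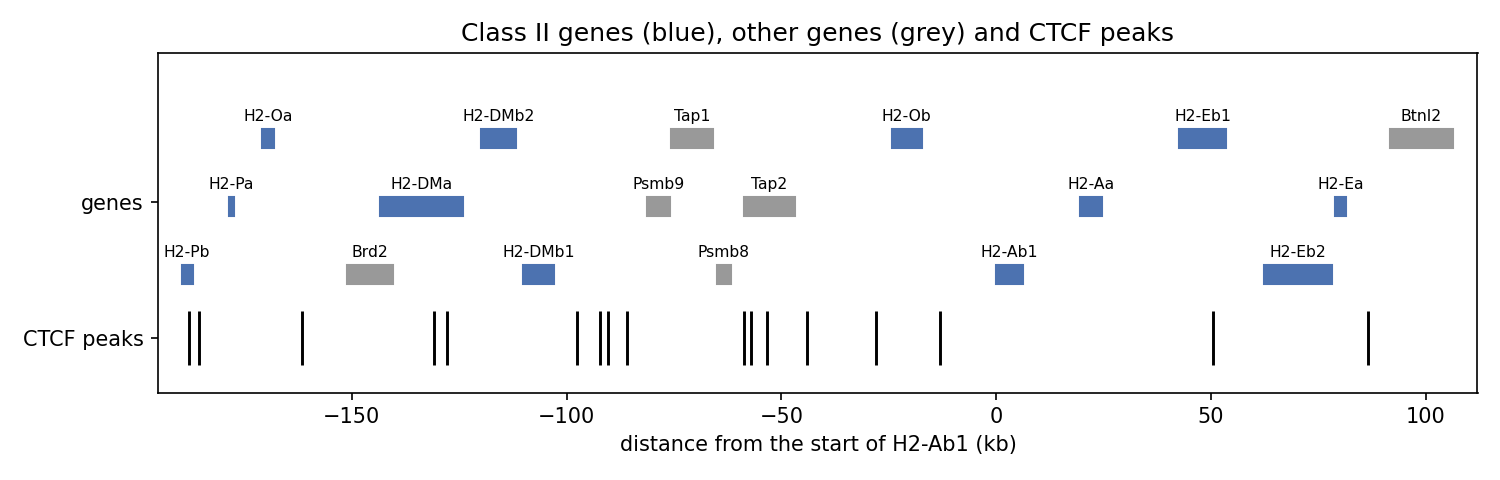
Class II genes (blue boxes), other genes (grey boxes, drawn on 3 levels for legibility) and CTCF peak midpoints (black lines) in kb from the start of H2-Ab1. Between H2-DMb1 and H2-Ob lie 9 peaks, at Tap2 and in the flanks of the block. Psmb9, Tap1 and Psmb8 themselves lie in a peak-free interval of 26.8 kb. From H2-Ab1 to H2-Ea there is 1 peak.

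Peaks stood at most borders between the pieces. Of 10 intervals between neighbouring genes at the borders of the pieces, 8 held a peak, against 31.8% of all intervals between neighbouring protein-coding genes. That share is over chromosomes 1 to 19, X and Y, at 8.55 peaks per Mb. From the first to the last H2 gene there were 33.9 per Mb. A share for other intervals of the stretch was not computed, so the part of local density was not tested. The border intervals were chosen after the peaks had been seen, and some end at the pseudogenes H2-K2, H2-Pb or H2-Ea. The border intervals had a median length of 11.2 kb, against 17.3 kb for all intervals between neighbouring protein-coding genes. Some were longer, and each of these held a peak. The 65.5 kb from H2-T3 to Rpp21 held 2, and the 31.5 kb from H2-Q10 to Pou5f1 held 1. Between class II and class III, 1 peak at 34349494 to 34349761 lay between H2-Ea and Btnl2, a butyrophilin-like gene, in 10.1 kb. Between class III and class I, the 9.39 kb from Ddx39b, an RNA helicase gene, to H2-D1 held 2 peaks, of 611 and 346 bp. The 53.0 kb from H2-D1 to H2-Q1 held 7, the first of them 0.199 kb beyond the downstream end of H2-D1 at 35267592 to 35267800.

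Farther along, the 14 kb from Gnl1, a GTPase gene, to H2-T24 held 2 peaks, and the 12.3 kb from Trim39 to H2-M10.2 held 1. Before H2-K2, 1 peak of 686 bp lay between Vps52 and H2-K2, in 7.62 kb. The 2 borders without a peak were the 6.93 kb from Col11a2, a collagen gene, to H2-Pb and the 8.91 kb from H2-M2 to Olfr110. The first of these had a peak inside H2-Pb, at 34075302 to 34075629.

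Some class I genes of the Q and M runs shared longer peak-free intervals than the class II genes did, while other class I genes stood alone in short ones. H2-Q1, H2-Q2, H2-Q3, H2-Q4 and H2-Q5 lay in 1 interval of 118 kb, from 35302389 to 35420455, which began at the widest peak of the stretch (785 bp). H2-Q6, H2-Q7 and H2-Q10 each had an interval of their own, of 13.9, 30.5 and 18.1 kb. H2-K2, H2-K1 and H2-D1 were also separate, H2-K1 in 11.0 kb and H2-D1 in 9.13 kb. H2-T24, H2-T23 and H2-T22 shared 63.4 kb. H2-T23 encodes Qa-1, the ligand of the inhibitory receptor NKG2A, and lay 28.3 kb from the nearest peak, while H2-T3, which encodes the thymus leukaemia antigen, lay 8.33 kb from one. H2-T-ps and H2-T10 lay on either side of 1 peak, at 36114334 to 36114544, at 2.72 and 1.43 kb from it. H2-Bl and H2-T22 were 19.1 and 18.3 kb from their nearest. The median interval between neighbouring peaks on chromosome 17 was 30.7 kb.

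The M run held long empty intervals. H2-M10.4, H2-M11, H2-M9, H2-M1 and H2-M10.5 lay in 1 interval of 368 kb, and 49 of the 985 intervals on chromosome 17 were as long or longer, itself included. Several M10 genes are expressed in the vomeronasal organ, where their products accompany pheromone receptors. Their copies are alike too, with promoters of H2-M10.3 and H2-M10.5 96.7% identical and those of H2-M9 and H2-M1 96.0%. H2-M10.2 and H2-M10.1 shared 78.0 kb, and H2-M10.6 had a peak 8.63 kb away. H2-M5 was the only M gene with a peak in its body, at 36997086 to 36997326, which is also within 1 kb of a gene end.

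H2-M3 and H2-M2, the last members, lay in the longest peak-free interval of chromosome 17. H2-M3, which presents formylated peptides of bacteria and mitochondria, was 66.4 kb from the nearest peak, and H2-M2 was 277 kb from it. The interval ran 3621 kb from 37203903 to 40824718, beyond the end of the stretch, and 41 of the 63 protein-coding genes within it had Olfr symbols. From the last H2 gene to 38 Mb there were 0 peaks in 516 kb, which allows up to 7.14 per Mb. Of the 51 olfactory receptor genes of the stretch, 0 had a peak at an end, which allows a share of up to 5.88%. Among all RefSeq genes the share was 8.30%, and among protein-coding genes 12.0%. A peak inside the gene or within 10 kb was present at 4 of the 51 (7.84%), against 36.2% and 50.8%.

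The neighbours on the proximal side began with a long empty interval. From 33 Mb to H2-K2 there were 13 peaks at 13.3 per Mb (7.10 to 22.8), and the 484 kb from 33008646 to 33493099 without a peak held 13 protein-coding genes, 4 with Olfr and 6 with Zfp symbols. Of 14 proximal framework genes listed, Hsd17b8 is another name of the member H2-Ke6, and the other 13 lie before H2-K2, in the K end or, for Brd2, in the class II part. Of these 13, 1 had a gene-end peak, Kifc1, a kinesin gene, and 9 had a peak inside the gene or within 10 kb of it, against 12.0% and 50.8% of protein-coding genes. Rps18, a ribosomal protein gene, and Pfdn6, a prefoldin subunit gene, were among the 4 without. Of 29 class III genes listed, 20 had a peak inside the gene or within 10 kb of it, and 4 had one at an end: Cyp21a1, the steroid 21-hydroxylase gene, Cfb, the complement factor B gene, Neu1, a sialidase gene, and Nfkbil1. The cytokine genes Tnf, Lta and Ltb, which are neighbours in 1 peak-free interval of 53.1 kb, had none within 10 kb. The longest empty interval of class III, 136 kb from 35030393 to 35166721, held 16 protein-coding genes. Of 27 distal framework genes listed, 19 had one within 10 kb and 3 had one at an end, Cdsn, Ddr1 and Dhx16. The shares with a peak inside or within 10 kb in the class III and distal lists were 69.0% and 70.4%, against 50.8% of protein-coding genes. The shares at an end in these lists, 13.8% and 11.1%, were near the 12.0% of protein-coding genes, and genes of a list that are neighbours share peaks.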

How the data were processed

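The authors deposited CTCF peaks as 1 merged list with chromosome, start and end alone, so the unit is a position in bp, with no normalisation. Tools in the submitters' processing notes are STAR, Picard and MACS2, with no version or role given, and builds are mm10 and dm6. The peak threshold, the treatment of duplicates, the way replicates and conditions were merged and the use of the Drosophila spike-in were not given in the sources used here. Depth per sample is unknown.

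Positions were counted from 1. Genes came from RefSeq GRCm38.p6, the assembly behind mm10, without genes below 3 Mb on chromosomes 1 to 19 and X or off the chromosomes, which left 49603 of 49997. Promoters and strands came from the RefSeq promoter table, in which 32 of the 46 members had an entry (first listed start). Peaks were assigned by their midpoint. Ratios of densities have exact conditional binomial intervals and densities exact Poisson intervals, at 95%. Promoter identity is 1 minus the edit distance (edlib 1.3.9.post1) of the central 150 bases placed anywhere in the other 300-base window. Counting functions were tested on simulated data. Python 3.11.15 and scipy 1.17.1 were used. No test across conditions was possible.

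Class membership, pieces and neighbour lists were set from symbols and gene positions, and all members and lists were chosen with earlier results of these data known. Named genes were members, genes beside borders or gaps, the genes with most peaks in a piece, and the neighbour lists. The NF-κB, interferon factor and Y box letters, the window 3 to 5 kb upstream and the border intervals were chosen after the peaks had been seen. Alternatives were other windows, any overlap, wider peaks, merged neighbours, shifted borders, protein-coding members only and class I without M genes.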

Additional observations from a re-analysis of the deposited data

How the results depend on the processing

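Of 60 alternative values over 18 results, 47 stayed within 1.5 times the count or, for densities, shares and medians, within the 95% interval of the reported value. With gene ends at 500 bp, 1 member in all had a gene-end peak, 1 in class I and 0 in class II, against 5.24% of all RefSeq genes. With only the peaks of median width or wider, 1 member in all, 0 in class I, had a gene-end peak, against 5.02% of all RefSeq genes, and the densities were 5.13 per Mb for the proximal neighbours, 10.1 for the K end, 33.2 for class II and 16.2 for distal class I. This setting keeps 11385 of the 22756 peaks by construction. Among protein-coding members, 0 of class II had a gene-end peak. In the gene body alone, 4 members in all held a peak, 1 in class I and 3 in class II, against 26, 15 and 10 with 10 kb added. In the body alone, the members' share of 8.7% (2.42 to 20.8%) had an interval that includes the 17.2% of all RefSeq genes. With 10 kb added, the share of 56.5% (41.1 to 71.1%) lay above their 36.2%. The part of gene length in these shares was not tested. Medians are loosely bounded: with wider peaks the median distance was 15.7 kb for all members in place of 8.27 kb and 25.1 kb for class I in place of 16.3 kb, and class I without M genes had 7.33 kb. No paired analysis was possible because the list carries no sample. For the same reason no replicate could be left out. Depth cannot be judged from positions.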
